A study of Mus musculus with 5 samples.

Results

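The collagen genes are the rows of the table whose whole symbol is Col, a number, the letter a and a number. There were 38 such rows among 17638 genes, 8 of basement membrane collagens, 11 of fibrillar collagens, 4 of type VI and 15 of other classes. The study sequenced poly(A) RNA of cells positive for CD31, an adhesion protein of endothelium that is also found on platelets and on part of the leukocytes, from mouse hearts taken 5 days after myocardial infarction. There were 2 libraries of Tbx1cko mice, which the series describes as an endothelial knockout of Tbx1, and 3 of mice labelled control. All were 2 months old and of C57BL/6 background, and all had an infarct, so no uninjured heart is part of the comparison. The labels used here name neither the Cre line nor the deleted part of Tbx1, and do not say what the controls carry or whether a library holds 1 animal or a pool. The p-values therefore measure only the spread between these libraries, which may be technical. The targeted gene Tbx1 encodes a T-box transcription factor, and its level was 18.3 and 17.3 normalised reads in Tbx1cko libraries and 64.4, 72.7 and 69.6 in control libraries, which goes with the labels. The log2 difference of Tbx1 was -1.89 (SE 0.30, limma adjusted p = 0.762).

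Collagens are trimers of chains that wind around each other in a triple helix, and each chain has its own gene. Fibrillar collagens form the banded fibres of scar and interstitium and are made mainly by fibroblasts. Type IV forms the sheet-like network of basement membranes under endothelium and around mural cells, and types XV and XVIII sit at its edge and carry fragments at their ends that restrain vessel growth. Type VI forms beaded microfilaments between the basement membrane and the interstitium. After an infarct the lost muscle is replaced by a collagen scar, into which new vessels grow.

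Recovered reads came to 17769729 and 16061666 in the Tbx1cko libraries and to 14689782, 18617284 and 17338772 in the control libraries. Control replicate 2 stood apart from the rest. Across genes, which are not independent replicates, Pearson's r of log2 values was 0.859 to 0.889 for pairs that include this library and 0.980 to 0.988 for the other pairs. It was the highest of the 5 libraries for 16 and the lowest for 8 of the 36 collagen genes tested, where over all genes tested it was highest for 41.1% and lowest for 41.5%. Results are therefore given with and without it.

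The collagen RNA of these cells was mostly that of basement membrane genes. Basement membrane genes took 91.8% and 84.5% of the summed normalised collagen reads in the Tbx1cko libraries and 86.1%, 91.8% and 89.8% in the control libraries. Fibrillar genes took 6.33% and 12.9% in Tbx1cko and 10.9%, 6.24% and 7.79% in control libraries. Type VI genes took 0.747% and 1.11% in Tbx1cko and 1.74%, 1.21% and 1.11% in control libraries. The share of fibrillar genes thus differed more between the 2 Tbx1cko libraries than between the groups. All 38 rows together held 1.92% and 1.82% of the recovered reads in Tbx1cko libraries and 1.97%, 2.30% and 2.01% in control libraries. The 95% Wilson intervals of these shares, which cover counting error only, ran, for example, from 1.91% to 1.92% for Tbx1cko replicate 1 and from 2.29% to 2.31% for control replicate 2.

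**Figure D1:**
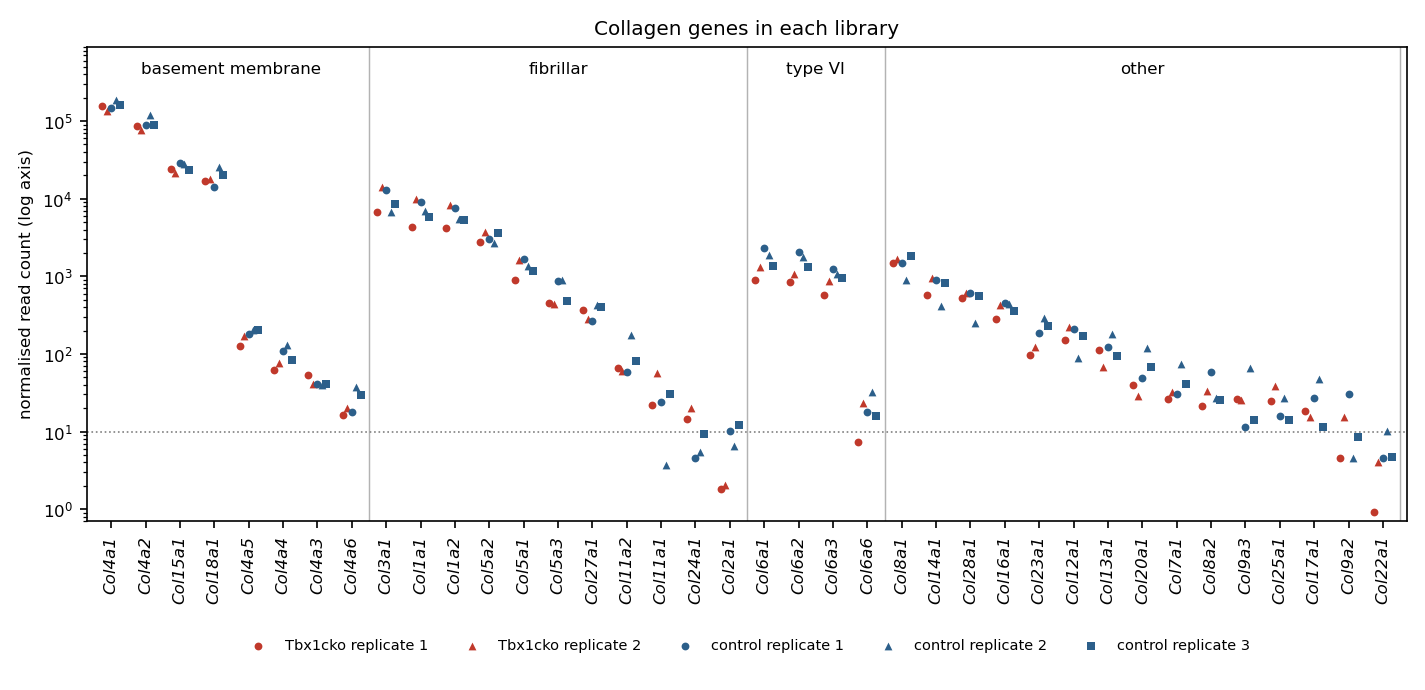
Normalised read count of each of the 38 collagen genes (log axis) in each of the 5 libraries, Tbx1cko in red and control in blue, grouped by class and ordered by mean. The dotted line marks a count of 10. Col4a1 and Col4a2 lie above every other collagen gene in every library, and the fibrillar genes Col3a1, Col1a1 and Col1a2 spread more between the 2 Tbx1cko libraries than the type IV genes do.

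Col4a1, one of the chains of the type IV network of vessel basement membranes, was the gene with the highest normalised count of all 17638 in each of the 5 libraries. Its partner chain gene Col4a2 ranked between 2 and 5. Per kilobase of the longest coding transcript, which is the scale for comparing genes, Col4a1 ranked between 12 and 18 and Col4a2 between 33 and 39 of the 16771 genes that had a length. On that scale the levels averaged 22115 in Tbx1cko and 25098 in control libraries for Col4a1, and 12706 and 15377 for Col4a2. Col15a1 followed at 4406 in Tbx1cko and 5171 in control libraries, and Col18a1 at 3113 and 3588. The most abundant fibrillar gene per kilobase, Col3a1, had 1860 in Tbx1cko and 1680 in control libraries. Of the 38 rows, 12 had a mean normalised count of at least 1000 and 16 had one under 100.

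Between the genotypes, no collagen gene passed the threshold. The test took in every gene whose normalised count averaged 10 or more, 36 of the 38, in a fit of limma on log2(normalised count + 1) across all 14339 such genes, with p-values adjusted by Benjamini-Hochberg. The count of genes past an adjusted p of 0.05 was 0 of 14339 (0%), and so 0 of 36 collagen genes. Col24a1 and Col9a2, which reached the filter only through the group in which they were higher, are left out of the counts at an unadjusted p and of those without overlap, which leaves 34 genes. At an unadjusted p under 0.05 there were 2 of the 34, Col23a1 and Col6a2, against 1.74% of all genes tested. Both were lower in Tbx1cko, where 1.37% of all genes were lower and 0.37% higher at that p. By edgeR on recovered reads 0 collagen genes passed, against 0% of all genes tested, with the same 2 of the 34 at an unadjusted p under 0.05, against 1.98%. By DESeq2 0 passed, against 0.0279%, with 4 of the 34 at an unadjusted p under 0.05, against 2.36%. The log2 difference was below 0 for 25 of the 36 collagen genes and for 47.6% of all genes tested. This count and the medians of the collagen genes and classes include Col24a1 (1.34) and Col9a2 (-0.32). With the filter at a mean of 50, which leaves out both among others, 19 of 25 were below 0, at a median of -0.23. The median difference was -0.24 for the 36 collagen genes and 0.03 for all genes tested.

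That median did not hold under every processing. Without control replicate 2 it was -0.17, with 30 of 36 genes below 0, where 46.7% of all genes tested were. After a correction of each library for the GC content of the transcripts it was 0.17, where the median of all genes tested was 0.11. Without Tbx1cko replicate 1 it was -0.063, and without Tbx1cko replicate 2 it was -0.46. The groups did not overlap for 9 of the 34 lower in Tbx1cko, against 13.9% of all genes tested, and for 1 higher, against 14.2%. Without control replicate 2 these counts were 9, where 17.8% of all genes were lower without overlap, and 3, where 19.7% were higher.

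Leaving out control replicate 2 left the count past an adjusted p of 0.05 at 0 of 36 collagen genes with limma, against 0.0209% of all genes tested, and at 0 with edgeR, against 0.00697%. At an unadjusted p under 0.05 both tools then had the same 8 of the 34, against 7.46% of all genes tested with either tool. They were Col6a1, Col6a2, Col6a3, Col23a1, Col20a1 and Col5a3, lower in Tbx1cko, and Col25a1 and Col9a3, higher. DESeq2 without that library had 4 of the 34 at an unadjusted p under 0.05, against 5.15%, and these were Col6a2, Col6a3, Col23a1 and Col5a3.

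**Figure D2:**
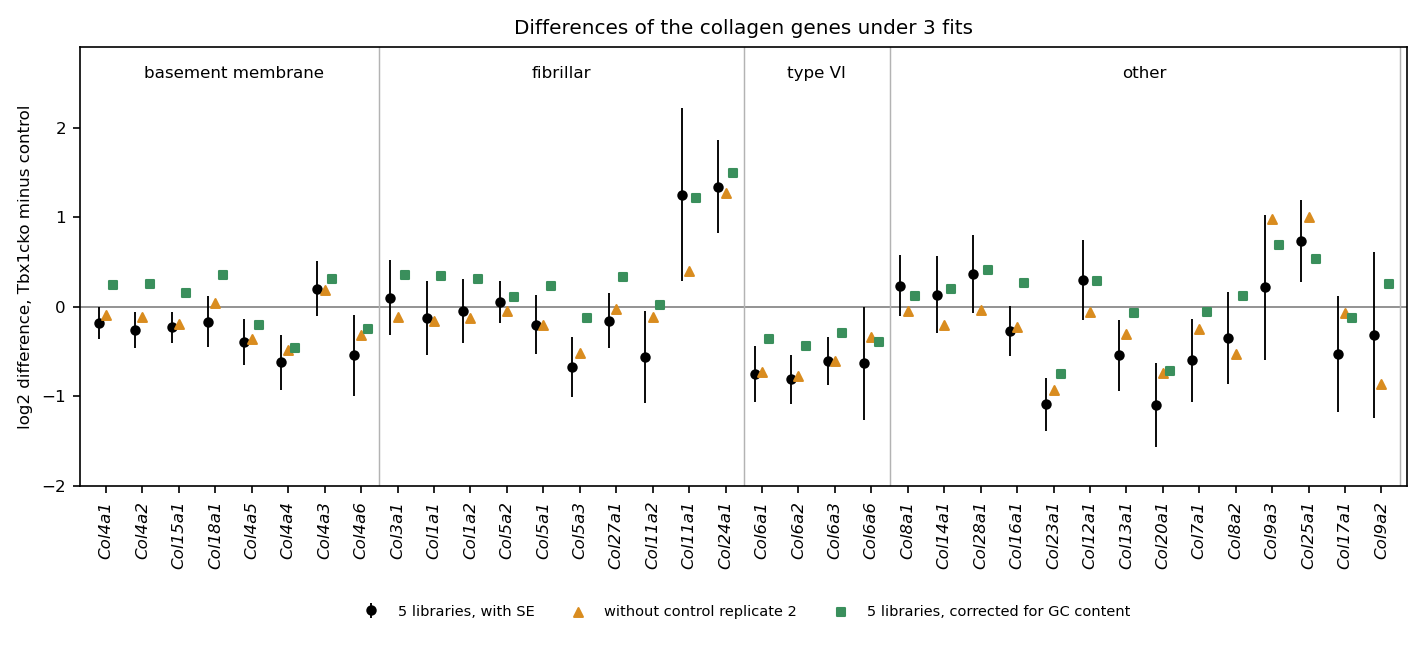
Fitted log2 difference of Tbx1cko minus control for the 36 collagen genes tested, by class. Black points are the fit to 5 libraries with their SE, triangles leave out control replicate 2, and squares are corrected for GC content. The 4 type VI genes lie below 0 in all 3 fits, while the 4 most abundant basement membrane genes lie below 0 in the fit to 5 libraries and above 0 after GC correction.

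No basement membrane gene passed the test. Col4a1 had 158554 and 134030.2 normalised reads in Tbx1cko libraries, against 149170.5, 186737 and 162161 in control libraries. The groups overlapped, and control replicate 2 was the highest. Col4a1 averaged 146292 ± 17341 in Tbx1cko (SD, n = 2) and 166023 ± 19079 in control libraries (SD, n = 3), a log2 difference of -0.18 (SE 0.18, limma adjusted p = 0.762). Col4a2 had 86654 and 77257 in Tbx1cko libraries, against 88995, 120499 and 88047 in control libraries. Both Tbx1cko values lay below the control values, by less than the spread among the controls. The log2 difference of Col4a2 was -0.26 (SE 0.20, adjusted p = 0.762), -0.11 without control replicate 2 and 0.26 after GC correction.

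Col4a1 and Col4a2 are read in opposite directions from a start region that they share. In GENCODE M21 on GRCm38, Col4a1 spans 11198423 to 11312826 of chromosome 8 on the minus strand and Col4a2 spans 11312805 to 11449287 on the plus strand, and the annotated starts are 21 bases apart and the genes overlap by 22 bases. The windows from 250 bases before to 50 after each start, from RefSeq on GRCm38.p6, are shown because 1 stretch of DNA serves the pair of chain genes with the highest counts among the collagens. Capitals mark the 78 bases that both windows hold, chr8:11312777-11312854, each window printed 5' to 3' on the strand of its gene. The Col4a1 window is chr8:11312777-11313076 on the minus strand, and the Col4a2 window is chr8:11312555-11312854 on the plus strand.
Col4a1: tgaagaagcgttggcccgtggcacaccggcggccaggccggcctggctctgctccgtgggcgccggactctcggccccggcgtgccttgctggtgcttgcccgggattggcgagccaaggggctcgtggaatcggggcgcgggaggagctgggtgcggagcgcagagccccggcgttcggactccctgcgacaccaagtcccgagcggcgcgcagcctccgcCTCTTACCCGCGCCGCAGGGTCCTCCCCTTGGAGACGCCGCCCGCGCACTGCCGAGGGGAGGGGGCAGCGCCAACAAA
Col4a2: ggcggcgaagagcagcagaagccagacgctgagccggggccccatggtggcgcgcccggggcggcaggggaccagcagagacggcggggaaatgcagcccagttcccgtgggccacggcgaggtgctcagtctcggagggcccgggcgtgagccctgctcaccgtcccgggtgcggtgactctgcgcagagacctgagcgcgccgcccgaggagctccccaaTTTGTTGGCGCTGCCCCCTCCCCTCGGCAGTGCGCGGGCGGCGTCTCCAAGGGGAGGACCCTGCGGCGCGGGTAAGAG
These windows were 74.0% and 73.7% G and C. The motif CCAAT, sought on both strands, occurred 1 time in each, and GGGCGG 1 time in the Col4a1 window and 3 times in the Col4a2 window.

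Within a library, the ratio of Col4a1 to Col4a2 per kilobase varied little. It was 1.78 and 1.69 in Tbx1cko libraries, against 1.63, 1.51 and 1.80 in control libraries. Type IV trimers of vessels hold more Col4a1 than Col4a2 chains, and the RNA ratio lay above 1 in every library. The groups overlapped in this ratio.

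The genes of the minor type IV chains had far lower levels than Col4a1 and Col4a2. Col4a5 had 127 and 172 normalised reads in Tbx1cko libraries, against 179, 203 and 202 in control libraries. Col4a4 had 62.2 and 75.4 in Tbx1cko libraries, against 108, 129 and 84.7 in control libraries. For both genes the Tbx1cko values lay below all control values, as for 13.9% of all genes tested. The log2 differences were -0.39 (SE 0.25) for Col4a5 and -0.62 (SE 0.31) for Col4a4, each at a limma adjusted p of 0.762. Col4a3, whose annotated start lies 72 bases from that of Col4a4 on the opposite strand of chromosome 1, had 53.0 and 40.8 in Tbx1cko libraries, against 40.7, 39.6 and 40.5 in control libraries. The Tbx1cko values of Col4a3 were the higher ones, unlike those of Col4a4, but the lower of them was close to the control values. The ratio of Col4a3 to Col4a4 per kilobase was 1.01 and 0.639 in Tbx1cko libraries, against 0.443, 0.363 and 0.565 in control libraries, with no overlap. In every other chain ratio taken the groups overlapped, among them Col4a5 to Col4a6, Col5a1 to Col5a2, Col5a3 to Col5a2 and Col15a1 to Col18a1. The exons of Col4a3 overlap 563 bases of an antisense gene, C430014B12Rik, and whether the counting used strand is not known here, so its count may hold reads of that gene. Col4a6 had 16.5 and 20.4 in Tbx1cko libraries, against 18.1, 37.7 and 29.2 in control libraries.

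The multiplexins, whose cut-off ends are endostatin and its relative restin, did not separate by genotype. Col15a1, a collagen of capillary basement membranes, had 23913 and 21659 normalised reads in Tbx1cko libraries, against 28640, 27960 and 23634 in control libraries. The log2 difference was -0.23 (SE 0.17, limma adjusted p = 0.762). Col18a1, the source of endostatin, had 16671 and 18161 in Tbx1cko libraries, against 14196, 25835 and 20201 in control libraries. Its values overlapped widely, and its log2 difference of -0.16 (SE 0.28) was 0.04 without control replicate 2.

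Type VI collagen genes had the lowest levels in Tbx1cko relative to control of the 4 classes, without passing the test. The median log2 difference of the class was -0.69, -0.38 without Tbx1cko replicate 1 and -1.01 without Tbx1cko replicate 2. Col6a1 had 888 and 1330 normalised reads in Tbx1cko libraries, against 2339, 1893 and 1376 in control libraries. Col6a2 had 853 and 1081 in Tbx1cko libraries, against 2072, 1770 and 1302 in control libraries. Col6a3 had 578 and 875 in Tbx1cko libraries, against 1251, 1084 and 940.0 in control libraries. These genes encode the chains that assemble into the common type VI trimer, and for each of the 3 both Tbx1cko values lay below all control values. In each of them Tbx1cko replicate 1 was the lowest library and control replicate 1 the highest. Of all genes tested, 13.9% were lower without overlap, and 17.8% without control replicate 2.

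The log2 difference was -0.75 (SE 0.32) for Col6a1, -0.81 (SE 0.27) for Col6a2 and -0.61 (SE 0.27) for Col6a3, each at a limma adjusted p of 0.762. Means of Col6a2 were 967 ± 161 (SD, n = 2) in Tbx1cko and 1715 ± 388 (SD, n = 3) in control libraries, so that control was 1.75-fold higher on the fitted scale. Without control replicate 2 the differences were -0.72, -0.77 and -0.61, with limma adjusted p-values of 0.477, 0.322 and 0.477. In DESeq2 without that library, Col6a2 passed at -0.82 (adjusted p = 0.0263). It was the 1 collagen gene called of the 36 tested, against 0.544% of all genes tested. DESeq2 gave an adjusted p to only 18 of these collagen genes there, and the share of all genes likewise counts genes without one. Col6a3 had an adjusted p of 0.236 and Col6a1 one of 0.962 in that fit. GC correction with 5 libraries left the differences at -0.36, -0.43 and -0.29. Col6a6, a chain that can stand in for Col6a3, had 7.3 and 23.4 in Tbx1cko libraries, against 18.1, 32.2 and 16 in control libraries, and its groups overlapped.

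The ratios between the chains of the type VI trimer overlapped between the genotypes. The ratio of Col6a1 to Col6a2 per kilobase was 1.18 and 1.40 in Tbx1cko libraries, against 1.28, 1.21 and 1.199 in control libraries, and that of Col6a3 to Col6a1 was 0.264 and 0.267 in Tbx1cko libraries, against 0.217, 0.232 and 0.277 in control libraries. Col6a1 and Col6a2 lie 102538 bases apart, start to start, on the minus strand of chromosome 10, and Col18a1 lies 440380 bases from Col6a1 on the same strand. The log2 difference of Col18a1 was -0.16 (SE 0.28), and the differences of these neighbours were not tested against each other. The window of Col6a1, chr10:76725995-76726294 on the minus strand, is shown as that of a gene of this trimer and holds none of the 4 motifs named with the type I and III genes, so it has no capitals.
Col6a1: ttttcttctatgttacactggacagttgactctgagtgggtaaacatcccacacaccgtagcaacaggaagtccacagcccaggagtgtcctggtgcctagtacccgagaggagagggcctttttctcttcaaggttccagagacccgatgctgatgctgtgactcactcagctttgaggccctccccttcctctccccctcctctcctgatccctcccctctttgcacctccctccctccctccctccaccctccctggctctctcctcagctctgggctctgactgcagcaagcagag

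Markers of mural cells, the pericytes and smooth muscle cells that also make type VI collagen, were lower in Tbx1cko libraries too. Of 10 mural markers 9 were below 0, with a median log2 difference of -1.004. That median was -0.71 without control replicate 2 and -0.72 after GC correction. For 8 markers the groups did not overlap, all lower, against 13.9% of all genes tested. None passed the threshold over all genes. At an unadjusted limma p under 0.05 there were 7, all lower, against 1.37% of all genes tested that were lower at that p. Without control replicate 2 that count was 9 of 10, against 7.46% of all genes in either direction. Pdgfrb, the pericyte growth factor receptor, had 1345 and 1396 normalised reads in Tbx1cko libraries, against 3161, 4413 and 2011 in control libraries. The summed level of the 10 markers was 34216 and 37559 in Tbx1cko libraries, against 53558, 36842 and 45599 in control libraries and overlapped. Rgs5, a pericyte gene, made up most of that sum in 4 of the libraries, at 23353 and 27112 in Tbx1cko libraries, against 35182, 8734 and 30891 in control libraries. No mural marker was at 0 in any library. All 4 type VI genes were higher in Tbx1cko replicate 2 than in replicate 1, against 49.97% of all genes tested. So were 5 of the 10 mural markers and 9 of 10 fibroblast markers. Between the genotypes 5 of the 10 fibroblast markers were lower, 0 of them without overlap. The part of mural cells or fibroblasts in the type VI values was not tested. In bulk RNA fewer cells of a type and less RNA per cell cannot be told apart.

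**Figure D3:**
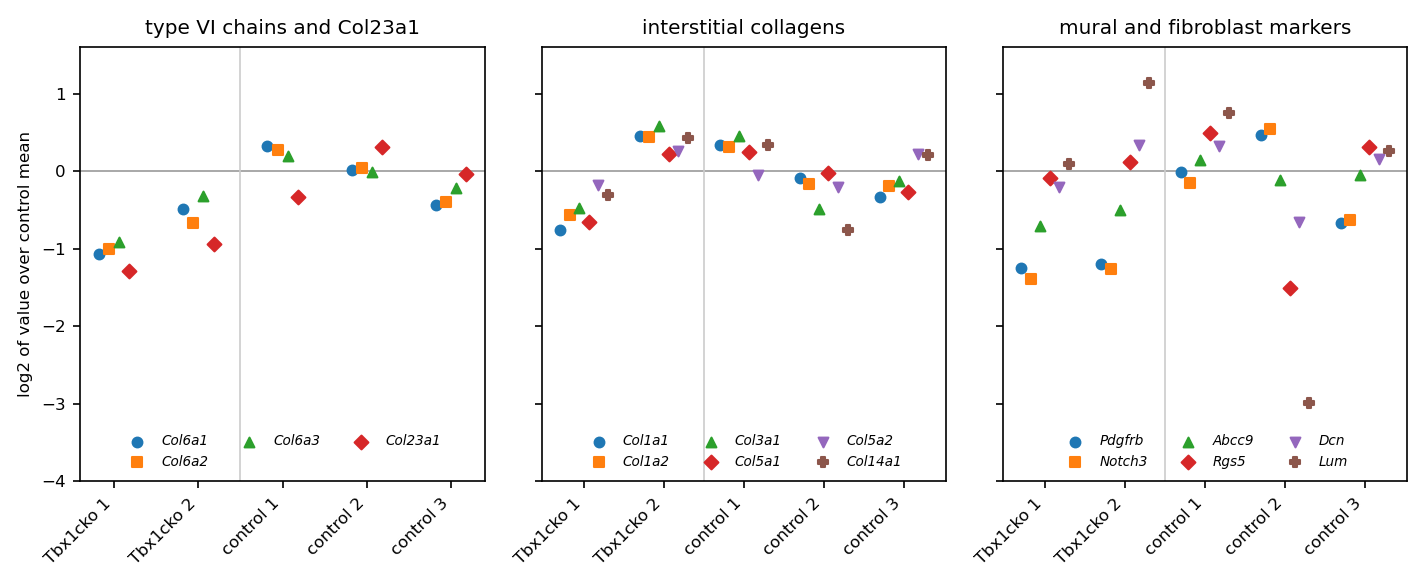
Log2 of the normalised read count over the mean of the control libraries, for each library, with Tbx1cko libraries left of control libraries. Left, Col6a1, Col6a2, Col6a3 and Col23a1, with both Tbx1cko libraries below every control library, as for 13.9% of all genes tested. Middle, collagen genes of the interstitium, with Tbx1cko replicate 1 low and Tbx1cko replicate 2 high. Right, mural markers (Pdgfrb, Notch3, Abcc9, Rgs5) and fibroblast markers (Dcn, Lum).

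The genes of the main fibrillar collagens, types I and III, differed more between the 2 Tbx1cko libraries than between the mean levels of the genotypes. Col1a1, the main chain of type I collagen in scar, had 4303 and 9930 normalised reads in Tbx1cko libraries, against 9184, 6843 and 5772 in control libraries. Col1a2, its partner chain, had 4156 and 8388 in Tbx1cko libraries, against 7642, 5474 and 5389 in control libraries. Col3a1, the collagen of early granulation tissue, had 6702 and 13995 in Tbx1cko libraries, against 12813, 6679 and 8551 in control libraries. For each of the 3 genes Tbx1cko replicate 2 was the highest of the 5 libraries. Tbx1cko replicate 1 was the lowest for Col1a1 and Col1a2 and the second lowest for Col3a1.

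The log2 differences between genotypes were -0.13 (SE 0.41) for Col1a1, -0.04 (SE 0.36) for Col1a2 and 0.10 (SE 0.42) for Col3a1, with limma adjusted p-values of 0.902, 0.964 and 0.923. Tbx1cko replicate 2 exceeded Tbx1cko replicate 1 by 2.31-fold for Col1a1, 2.02-fold for Col1a2 and 2.09-fold for Col3a1. Over all 36 collagen genes tested it was above for 25, against 49.97% of all genes tested. Leaving out a Tbx1cko library turned the fibrillar median round, to 0.36 without replicate 1 and to -0.46 without replicate 2, against -0.08 with all libraries. With the filter at a mean of 50, which leaves out Col24a1 and Col11a1, the fibrillar median was -0.14. Of 10 fibroblast markers other than collagens, 9 were higher in Tbx1cko replicate 2 than in replicate 1, among them Dcn, a small proteoglycan that binds collagen fibres, with 1184 and 1733 normalised reads in replicates 1 and 2. The summed level of these markers was 6808 and 9851 in Tbx1cko libraries, against 10824, 4524 and 8102 in control libraries, and none was at 0. The part of fibroblasts in the fibrillar values was not tested. The 2 Tbx1cko libraries also differed in sex-linked RNA, with Xist at 0 and 12968 and Ddx3y at 1929 and 3.06 normalised reads in replicates 1 and 2. In control libraries Xist was at 16.9, 0 and 1.88 and Ddx3y at 1673, 43.2 and 2116. Tbx1cko replicate 2 was thus the 1 library with a high level of Xist, and control replicate 2 was low in both genes.

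Type I chains stood near parity. The ratio of Col1a1 to Col1a2 per kilobase was 0.934 and 1.07 in Tbx1cko libraries, against 1.08, 1.13 and 0.966 in control libraries, although the type I trimer holds more Col1a1 than Col1a2 chains. The ratio of Col3a1 to Col1a1 was 1.66 and 1.502 in Tbx1cko libraries, against 1.49, 1.04 and 1.58 in control libraries, with its lowest value in control replicate 2. The start windows of Col1a2, chr6:4505368-4505667 on the plus strand, and of Col3a1, chr1:45311288-45311587 on the plus strand, are shown because they differ in base composition, at 61.0% and 37.7% G and C. Apart from control replicate 2, the libraries had the same order of level for both genes. The Col1a2 window follows the RefSeq start and lies downstream of the GENCODE start at 4504814. Capitals mark the motifs sought on both strands, which were the TATA box as TATAAA, the CCAAT box that factor NF-Y binds, the GGGCGG core that factor Sp1 binds, and the half-site GGTGTGA that T-box factors bind.
Col1a2: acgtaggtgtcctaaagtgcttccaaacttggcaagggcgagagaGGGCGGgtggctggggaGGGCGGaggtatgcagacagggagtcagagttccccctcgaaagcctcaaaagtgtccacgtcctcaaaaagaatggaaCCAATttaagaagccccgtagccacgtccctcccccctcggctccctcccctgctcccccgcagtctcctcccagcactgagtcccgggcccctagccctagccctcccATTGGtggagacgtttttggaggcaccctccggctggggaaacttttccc
Col3a1: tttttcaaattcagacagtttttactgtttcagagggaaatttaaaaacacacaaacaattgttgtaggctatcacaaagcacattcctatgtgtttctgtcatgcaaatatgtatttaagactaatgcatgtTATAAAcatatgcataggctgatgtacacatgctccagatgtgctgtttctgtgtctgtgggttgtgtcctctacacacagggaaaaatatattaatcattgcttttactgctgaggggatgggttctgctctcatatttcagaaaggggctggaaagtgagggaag
The Col1a2 window held CCAAT 2 times and GGGCGG 2 times, and the Col3a1 window held TATAAA 1 time.

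The type V genes, which start fibrils and set their width, were mixed. Col5a2 had 2754 and 3715 normalised reads in Tbx1cko libraries, against 2991, 2705 and 3635 in control libraries, a log2 difference of 0.05 (SE 0.23). Its start lies 191744 bases from that of Col3a1, on the opposite strand of chromosome 1. Col5a1 had 890 and 1629 in Tbx1cko libraries, against 1662, 1369 and 1160 in control libraries, following Col1a1 in having Tbx1cko replicate 1 lowest. Col5a3 had 450.0 and 445 in Tbx1cko libraries, against 867, 886 and 476 in control libraries. The Tbx1cko values of Col5a3 were close together and below all control values, with a log2 difference of -0.67 (SE 0.34, limma adjusted p = 0.762) that was -0.13 after GC correction.

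Among the scarcer fibrillar genes, Col27a1 had 368 and 283 normalised reads in Tbx1cko libraries, against 266, 430 and 406 in control libraries. Col11a2, known from cartilage, had 66.8 and 60.1 in Tbx1cko libraries, against 58.8, 175 and 80.0 in control libraries, and its log2 difference of -0.56 was -0.11 without control replicate 2. Col11a1 had 21.95 and 57.1 in Tbx1cko libraries, against 23.7, 3.7 and 30.1 in control libraries, and its log2 difference of 1.25 was 0.40 without control replicate 2. The pair are chains of type XI, and control replicate 2 was their highest library for Col11a2 and their lowest for Col11a1. Col24a1 had 14.6 and 20.4 in Tbx1cko libraries, against 4.5, 5.5 and 9.4 in control libraries, a log2 difference of 1.34 (SE 0.52, limma adjusted p = 0.762). Col24a1 passed the filter on low values only through its Tbx1cko values, so its difference is given as a description. Col2a1, the cartilage fibre chain, was below the filter, at 1.8 and 2.0 in Tbx1cko libraries, against 10.2, 6.4 and 12.2 in control libraries.

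Of the other classes, the transmembrane collagen gene Col23a1 had the smallest unadjusted p of all collagen genes tested. It had 96.0 and 122 normalised reads in Tbx1cko libraries, against 186, 292 and 229 in control libraries. Both Tbx1cko values lay below all control values, with means of 109 ± 18.6 in Tbx1cko (SD, n = 2) and 236 ± 52.9 in control libraries (SD, n = 3). The log2 difference was -1.09 (SE 0.30), -0.92 without control replicate 2 and -0.75 after GC correction, with limma adjusted p-values of 0.762 and 0.291 for the first pair. Its start window, chr11:51289670-51289969 on the plus strand, is shown for that place in the order, with its 1 match to GGGCGG in capitals.
Col23a1: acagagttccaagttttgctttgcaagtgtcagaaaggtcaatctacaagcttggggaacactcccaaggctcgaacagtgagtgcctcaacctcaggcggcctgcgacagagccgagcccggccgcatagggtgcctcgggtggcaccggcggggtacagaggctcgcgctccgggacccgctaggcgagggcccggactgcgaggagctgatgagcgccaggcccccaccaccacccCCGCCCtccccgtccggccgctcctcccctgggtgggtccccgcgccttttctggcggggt
The other transmembrane genes were scarcer. Col13a1, found at cell contacts, had 112 and 68.3 in Tbx1cko libraries, against 124, 178 and 93.2 in control libraries. Col25a1 had 24.7 and 38.7 in Tbx1cko libraries, against 15.8, 26.7 and 14.1 in control libraries, a log2 difference of 0.74 (SE 0.46). Col17a1, a hemidesmosome collagen of skin, had 18.3 and 15.3 in Tbx1cko libraries, against 27.1, 46.9 and 11.3 in control libraries.

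The fibril-associated collagens, which sit on the surface of fibrils, did not separate by genotype as a class. Col14a1 had 570 and 951 normalised reads in Tbx1cko libraries, against 887, 415 and 815 in control libraries. Col16a1 had 279 and 421 in Tbx1cko libraries, against 455, 439 and 354 in control libraries. Col12a1 had 149 and 220.1 in Tbx1cko libraries, against 208, 89.2 and 171 in control libraries. In all 3 Tbx1cko replicate 1 was below Tbx1cko replicate 2, as in the type I and III genes, and their log2 differences were 0.14, -0.27 and 0.30. Col20a1 had 40.2 and 28.5 in Tbx1cko libraries, against 48.6, 120 and 67.7 in control libraries, a difference of -1.09 (SE 0.47, limma adjusted p = 0.762) with no overlap. Col9a3 and Col9a2, chains of type IX, had 26.5 and 25.5, and 4.6 and 15.3, in Tbx1cko libraries, against 11.3, 66.2 and 14.1, and 30.5, 4.6 and 8.5, in control libraries. Col22a1 was below the filter, at no more than 10.1 in any library.

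Col8a1, a short-chain collagen of vessel walls that forms a hexagonal network, had 1501 and 1674 normalised reads in Tbx1cko libraries, against 1477, 905 and 1816 in control libraries. Its log2 difference of 0.24 (SE 0.34) was -0.05 without control replicate 2. Col8a2 had 21.04 and 33.6 in Tbx1cko libraries, against 58.8, 26.7 and 25.4 in control libraries. Col28a1, a collagen known from nerve sheaths, had 529 and 617 in Tbx1cko libraries, against 618, 252 and 556 in control libraries, and its difference of 0.37 (SE 0.44) was -0.04 without control replicate 2. Col7a1, the anchoring fibril chain, had 26.5 and 32.6 in Tbx1cko libraries, against 30.5, 73.6 and 40.5 in control libraries.

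The base composition of the genes moved with the values of control replicate 2. The GC content of the longest coding transcript ranged from 45.9% to 62.9% over the 36 collagen genes tested, with a median of 56.2%, against a median of 50.1% over all genes tested with a value. The 7 collagen genes under 50% GC had a median deviation of -0.93 (log2) of control replicate 2 from the mean of the other libraries, and 6 of the 7 were below 0. The 7 at or above 60% had a median deviation of 0.59, and 6 of the 7 were above 0. Across the 36 genes, which share the 5 libraries and are not independent replicates, Pearson's r was 0.51 and Spearman's rho 0.47. Over all 13771 genes tested with a GC value the relation was stronger, at 0.75 and 0.82, so it is no trait of the collagen genes. The difference between genotypes ran the other way, with r = -0.53 over the collagen genes and -0.68 over all genes, and without control replicate 2 with r = -0.34 over the collagen genes and -0.24 over all genes. All 7 genes at or above 60% GC, Col9a2 among them, had a log2 difference below 0, and 0 of the 7 under 50% did. Without control replicate 2 these counts were 6 and 5.

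**Figure D4:**
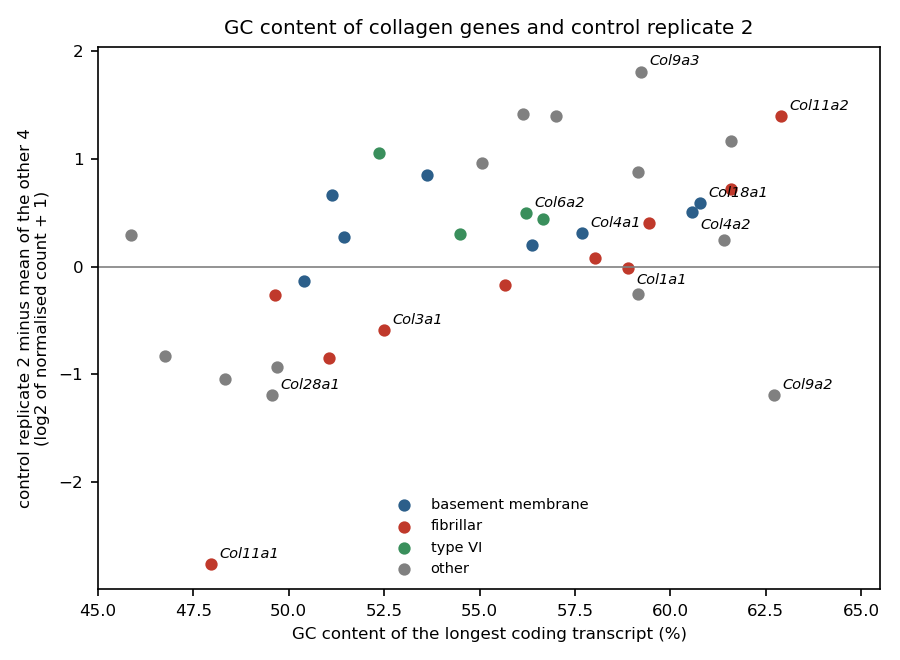
Deviation of control replicate 2 from the mean of the other 4 libraries (log2 of normalised count + 1) against the GC content of the longest coding transcript, for the 36 collagen genes tested, coloured by class. Of the genes under 50% GC, 6 of 7 lie below 0, such as Col11a1 and Col28a1, and of those at or above 60%, 6 of 7 lie above it, such as Col11a2 and Col18a1, while Col9a2 lies at -1.196.

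Start windows were at hand for 30 of the 38 collagen genes, 32 windows in all. GGGCGG occurred in the windows of 20 of the 30 genes (66.7%), against 35.9% of the 32544 windows of all genes. CCAAT occurred in 11 (36.7%, against 37.4%), TATAAA in 4 (13.3%, against 13.6%) and GGTGTGA in 1, that of Col11a2 (3.33%, against 3.95%). These are matches of letters, and several windows of a gene count as 1 gene for the collagens and as separate windows for all genes.

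Genes that make and cross-link collagen did not pass the test either. Of 32 genes in this list 30 were tested, 0 passed and 20 were lower in Tbx1cko, against 47.6% of all genes tested. The median log2 difference was -0.11, and 0.14 after GC correction. The groups did not overlap for 7, all lower, against 13.9% of all genes tested. Without control replicate 2, 21 were lower, against 46.7%, and 10 were lower without overlap, against 17.8%. P3h2, a prolyl 3-hydroxylase of basement membrane collagen, had 158 and 172 normalised reads in Tbx1cko libraries, against 263, 292 and 211 in control libraries, a difference of -0.61 (SE 0.25, limma adjusted p = 0.762). P3h3, a related gene, had 394 and 432 in Tbx1cko libraries, against 485, 733 and 511 in control libraries. Loxl4, a lysyl oxidase that cross-links matrix, had 90.5 and 152 in Tbx1cko libraries, against 159, 234 and 178 in control libraries. Adamts14, which trims procollagen ends, had 29.3 and 47.9 in Tbx1cko libraries, against 54.2, 95.7 and 53.6 in control libraries.

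The lysyl hydroxylase genes differed in direction. Plod3, which also adds sugars to collagen, had 2235 and 2062 normalised reads in Tbx1cko libraries, against 2506, 3743 and 2394 in control libraries, a log2 difference of -0.39 (SE 0.26) that was 0.03 after GC correction. Plod2, which sets the cross-links of scar collagen, had 649 and 1094 in Tbx1cko libraries, against 553, 103 and 714 in control libraries, and its difference of 1.29 (SE 0.88) was 0.42 without control replicate 2. Serpinh1, the chaperone HSP47 of procollagen, had 19680 and 14201 in Tbx1cko libraries, against 19117, 23188 and 18571 in control libraries, and was named for its level after its values were seen.

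Of 10 collagen receptor genes 9 were tested, 0 passed and 4 were lower in Tbx1cko, against 47.6% of all genes tested. The groups did not overlap for 1 lower, Ddr1, against 13.9% of all genes tested, and for 1 higher, Lair1, against 14.2%. Ddr1, a receptor kinase for collagen, had 92.4 and 99.9 normalised reads in Tbx1cko libraries, against 125, 298 and 134 in control libraries, with no overlap and a log2 difference of -0.83 (SE 0.45). Mrc2, which takes up collagen fragments, had 227 and 456 in Tbx1cko libraries, against 576, 559 and 388 in control libraries. Lair1, an inhibitory collagen receptor of leukocytes, had 637 and 701 in Tbx1cko libraries, against 568, 113 and 588 in control libraries, and its difference of 0.99 was 0.21 without control replicate 2. Itgb1, the shared beta chain of collagen-binding integrins, had 28283 and 26851 in Tbx1cko libraries, against 23864, 8516 and 28934 in control libraries, and its difference of 0.61 was 0.07 without control replicate 2. For the receptors Lair1 and Itgb1 control replicate 2 was far below the other 4 libraries, where for Ddr1 it was far above.

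The labelled endothelial identity was checked with 10 markers, all present in every library, with Cdh5 at 46531 and 45379 normalised reads in Tbx1cko libraries and 49622, 62849 and 47737 in control libraries. The RNA was not endothelial alone. The summed level of 8 leukocyte markers was 84627 and 88716 in Tbx1cko libraries, against 90386, 55518 and 69255 in control libraries, with 7 of 8 higher in Tbx1cko in the fit and 4 of 8 without control replicate 2. The 6 cardiomyocyte markers summed to 8299 and 7160 in Tbx1cko libraries, against 6631, 12504 and 5948 in control libraries, and 3 of 6 were lower, at a median log2 difference of -0.002. Without control replicate 2, 0 of 6 were lower, the median was 0.34 and 5 had an unadjusted p under 0.05, against 7.46% of all genes tested. The endothelial list had 8 of 10 members lower, at a median of -0.17, the fibroblast list 5 of 10, at 0.06, the epicardial list 1 of 2 tested and the Schwann list 1 of 1 tested. Of all genes tested 47.6% were lower, and 46.7% without control replicate 2. Without overlap, 5 endothelial markers were lower and 1 higher, against 13.9% and 14.2% of all genes tested. The epicardial markers Upk3b and Msln were at 0 in at least 1 library, and no member of any list passed the threshold over all genes.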

How the data were processed

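RNA of CD31-positive cells was measured in 2 Tbx1cko and 3 control libraries, grouped by sample title. The submitters' processing notes name STAR 2.5.2b, R 3.5.1, DESeq and DESeq2 1.20.0, with GRCm38 (mm10) as the build. How reads were counted, with which annotation and whether by strand, is not given in the sources used here. The table holds a signal per gene as deposited, made of read counts that the authors divided by 1 size factor per library. All values (100%) were whole multiples of the value of 1 read within 0.01, so whole reads were recovered. Every gene had at least 12 reads in all.

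Fitting used limma 3.58.1 (R 4.3.3, trended prior) on log2(count + 1) for genes averaging 10 or more, with 1 term for genotype. Tests were 2-sided, p-values were adjusted by Benjamini-Hochberg and the threshold was 0.05. Fold changes on this scale understate those of low genes. Adjusted p-values are limma's unless another tool is named. edgeR 4.0.16 called 0 genes and DESeq2 1.42.0 called 4 on the recovered reads. The fit was repeated with a pseudocount of 0.5 or 5, with a filter at 50 or none, with TMM scaling or quantile normalisation, without the trend, with GC correction (loess, span 0.3), with a replicate block and with each library left out. GC content, length and positions came from GENCODE M21 on GRCm38, matched by symbol (96% of genes tested), with the longest coding transcript of each gene. Start windows came from RefSeq on GRCm38.p6. The fits were also run on simulated counts. Their dispersion was estimated without control replicate 2 and they held no GC trend, so they do not show how the fits handle that library.

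The collagen genes, classes, gene lists and tests were chosen with earlier results of these data known. Named with values were Tbx1, in each class the 4 genes with the smallest unadjusted p and the 4 with the highest mean, and the 6 biosynthesis and 4 receptor genes with the smallest p. The remaining collagen genes, the marker genes, Serpinh1, Xist and Ddx3y were added once their values had been seen. Replicates differed by more than sampling noise (chi-square per degree of freedom of at least 11.8), so none was counted as a duplicate. Exons of 11 of the 38 collagen genes overlap another annotated gene, by at most 563 bases.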

Additional observations from a re-analysis of the deposited data

How the results depend on the processing

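No collagen gene passed under any limma or edgeR alternative, nor with DESeq2 on all libraries. DESeq2 without control replicate 2 called 1, Col6a2 (-0.82). Over all genes, limma called 0, DESeq2 4, the replicate block 3, and, without control replicate 2, limma 3, edgeR 1 and DESeq2 78. Leaving out 1 library, limma called from 0 to 3 genes and 0 collagen genes. The replicate numbers are shared by the groups but nothing in the labels ties them. Deviations from group means correlated at -0.06 for number 1 and -0.05 for number 2, and with the replicate block 0 collagen genes passed. Number 3 occurs only in control libraries, so the block gave the same log2 differences as leaving out control replicate 3. The median of the collagen genes was -0.33 in both, and for these differences they are not separate alternatives.

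The type VI median (-0.69) moved by less than its spread between libraries under all 19 alternatives. That log2 spread was 0.35 for type VI and 0.34 for fibrillar genes, against 0.17 for basement membrane and 0.18 for other genes. The yardstick was thus wider for type VI than for the basement membrane and other genes. The type VI median was -0.38 with GC correction, and -0.60 with GC correction and without control replicate 2. GC correction moved the medians of all collagen genes from -0.24 to 0.17, fibrillar from -0.08 to 0.32, basement membrane from -0.24 to 0.20 and other genes from -0.29 to 0.16, beside a shift of the median of all genes to 0.11. With GC correction and without control replicate 2 they were -0.080, -0.044, -0.058 and -0.083. A filter at a mean of 50 moved the other genes to -0.067. Leaving out 1 library, the medians ranged from -0.46 to -0.063 for all collagen genes, from -0.46 to 0.36 for fibrillar, from -0.36 to -0.15 for basement membrane, from -1.01 to -0.38 for type VI and from -0.43 to 0.11 for other genes. The cause was not tested.

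Of 37 named genes, 17 changed sign in at least 1 of the alternatives, in 50 of 698 values, all short of the threshold. In DESeq2 2 newly passed, Tbx1 with all libraries (-1.95) and Col6a2 as above. With GC correction the sign turned for Col11a2 (0.0186), Col1a1 (0.34), Col1a2 (0.31), Col15a1 (0.15), Col18a1 (0.36), Col4a1 (0.24), Col4a2 (0.26), Col16a1 (0.27), P3h3 (0.0709) and Plod3 (0.0334). With GC correction, without control replicate 2 the sign turned for Col11a2 (0.0982), Col3a1 (-0.0805), Col5a2 (-0.0691), Col18a1 (0.21), Col4a1 (0.0043), Col4a2 (0.0485), Col14a1 (-0.23), Col28a1 (-0.0641), Col8a1 (-0.0804) and Itgb1 (-0.0297). With quantile normalisation the sign turned for Col1a2 (0.0286). With edgeR the sign turned for Col1a2 (0.0088). With DESeq2 the sign turned for Col1a2 (0.0227). With edgeR, without control replicate 2 the sign turned for Col3a1 (-0.0602), Col5a2 (-0.0474), Col18a1 (0.0062), Col14a1 (-0.18), Col28a1 (-0.0498) and Col8a1 (-0.0659). With DESeq2, without control replicate 2 the sign turned for Col3a1 (-0.0599), Col5a2 (-0.0459), Col18a1 (0.008), Col14a1 (-0.18), Col28a1 (-0.0486) and Col8a1 (-0.0643). Leaving out 1 library in turn, the ranges of those whose sign turned were Col1a1 -0.73 to 0.48, Col1a2 -0.55 to 0.46, Col3a1 -0.43 to 0.64, Col5a2 -0.16 to 0.27, Col18a1 -0.39 to 0.0391, Col6a6 -1.41 to 0.15, Col14a1 -0.23 to 0.51, Col16a1 -0.57 to 0.0256, Col28a1 -0.0382 to 0.61 and Col8a1 -0.0469 to 0.46.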
